A study of Sus scrofa with 20 samples.

Results

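The nuclear genes of oxidative phosphorylation were examined in the caecal mucosa of pigs that differed in feed efficiency. Members were all platform gene symbols that begin with NDUFA, NDUFB, NDUFC, NDUFS or NDUFV and a digit, SDHA to SDHD, all UQCR and ATP5 symbols, COX4 to COX8, and CYC1 and CYCS. This rule matched 55 symbols, and 48 of them had values on the array, out of 10638 named genes. The 48 genes were covered by 65 probesets, and each gene was represented by its probeset with the highest mean over all pigs. Complex I contributed 21 genes, complex II 3, complex III 2, complex IV 8 and complex V 13, and CYCS stood alone. The 7 symbols ATP5A1, ATP5H, ATP5O, NDUFA4L2, NDUFB10, NDUFS1 and NDUFS7 had no values in the table and were not analysed. None of the 26 listed subunits and RNAs encoded by mitochondrial DNA had a value, so every statement concerns nuclear genes.

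The 20 pigs were Large White and Landrace crosses from 5 litters, named by their sows 1406, 1410, 1411, 1417 and 1435. From each litter came 2 pigs of high and 2 of low feed efficiency, in either case a male and a female, so that there were 10 pigs per efficiency group and 10 per sex. High feed efficiency means a low residual feed intake, that is, less feed eaten than growth and body composition predict. Littermates shared a pen and had free access to feed, so litter, pen and sow cannot be told apart, and mucosa was scraped from the tip of the caecum. Mucosal markers were present: 9 of the 20 listed colonocyte markers were measured, between FABP2 at 2.23 and the keratin KRT8 at 12.33 on the log2 scale, and 6 of 10 goblet cell markers lay between 6.12 and 10.67. The same samples carried 12 of 16 lymphocyte markers at 5.24 to 8.18, so the mucosa was a mixture of cell types.

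Oxidative phosphorylation couples the oxidation of nutrients to ATP synthesis in the inner mitochondrial membrane. Complex I takes electrons from NADH and complex II from succinate, ubiquinone carries them to complex III, cytochrome c carries them on to complex IV, and complex IV reduces oxygen to water. Complexes I, III and IV pump protons out of the matrix, and complex V, the ATP synthase, lets them return while it makes ATP. Colonocytes of the hindgut are known for oxidising butyrate, a product of bacterial fermentation, as a main fuel.

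Each member was represented by its brightest probeset, so the levels are partly set by that choice and are a description. The mean log2 levels ran from 3.22 to 12.27 with a median of 7.96, whereas the median over all 25092 probesets was 4.77. Complex I genes lay between 5.88 (NDUFB11) and 10.05 (NDUFB8), complex II genes between 8.09 (SDHD, a membrane anchor) and 10.34 (SDHB, the iron-sulfur subunit), and the 2 complex III genes UQCRB and UQCR10 at 7.05 and 9.71. Complex IV genes lay between 3.69 (NDUFA4) and 10.70 (COX6A1), and complex V genes between 3.22 (ATP5S) and 12.27 (ATP5B, the catalytic beta subunit). With the mean over all probesets of a gene, the median level was 7.61 for complex I and 6.73 for complex V, against 7.98 and 7.27 with the brightest. Probes bind unequally, so these values are not a ranking of the genes. The 5 members under the median of all probesets were NDUFA4, ATP5S, ATP5SL, ATP5G2 and CYCS, which encodes cytochrome c. NDUFA4 is named after complex I but belongs to complex IV, and it was counted there. RefSeq gives this symbol to a gene on chromosome 9 and also to a pseudogene on chromosome 13, and the platform table does not say which of them its dim probesets match. ATP5S and ATP5SL match the rule by symbol and are not subunits of the ATP synthase. In humans the product of ATP5SL assists the assembly of complex I.

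Members varied unequally between pigs. The SD over the 20 pigs had a median of 0.23 over the members, 0.26 over 5755 named genes at or above the lowest decile of member levels, and 0.28 over 10567 named genes. ATP5SL varied the most, with an SD of 1.30, followed by ATP5C1, the gamma subunit of the central stalk, with 0.82. The smallest SDs were those of SDHB and COX6C, both 0.12.

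**Figure D1:**
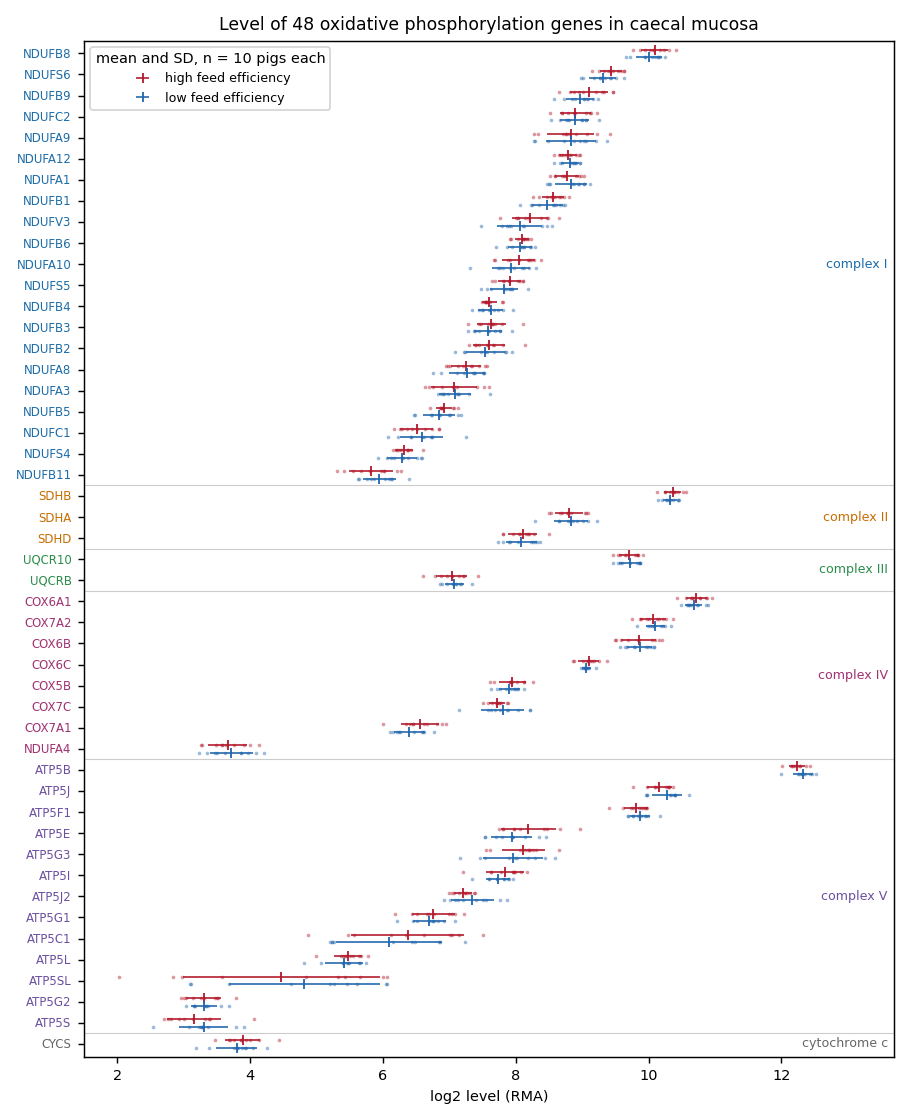
Log2 level (x axis, RMA) of the 48 genes in each pig, grouped by complex and sorted by mean level within it; points are pigs, and ticks and bars are mean and SD of 10 pigs of high (red, upper) and 10 of low (blue, lower) feed efficiency. The 2 groups overlap in every gene, and ATP5SL and ATP5C1 have the widest spread.

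The main question was whether transcript abundance of these genes differed between littermates of high and low feed efficiency. No member passed, out of 47 tested, either at an adjusted p under 0.05 (limma with sow in the model, Benjamini-Hochberg) or at an unadjusted p under 0.05, the threshold that the study used. Over all 23140 probesets tested, 0% passed the adjusted threshold and 4.48% the unadjusted one, 2.54% with a higher and 1.94% with a lower level at high efficiency. The difference, high minus low, had a median of 0.02 over the members, with a range of -0.15 to 0.28, and it was above 0 in 26 members, against 51.1% of all probesets tested. By complex the medians were 0.03 for complex I, 0.02 for complex II, -0.02 for complex III, 0.01 for complex IV and 0.02 for complex V. ATP5SL was removed by the study's filter on SD. Its values were 2.02, 5.08 and 6.05 (lowest, median and highest) in high-efficiency pigs, against 3.10, 5.24 and 6.06 in low-efficiency pigs.

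Of the marker lists, myeloid cells had 4 of 9 measured genes (44.4%) at an unadjusted p under 0.05 for feed efficiency, against 4.48% of all probesets, all 4 higher at high efficiency and none past the adjusted threshold. The difference was above 0 in 6 of the 9, with a range of -0.33 to 0.44. The other cell type lists had 0% (goblet cells) to 20% (striated muscle). Colonocyte markers had 1 of 8 tested, FABP1, at -0.31 ± 0.12 (SE), and the difference was above 0 in 1 of the 8. The mean level of the myeloid list was 6.68 to 7.35 in high-efficiency pigs and 6.81 to 7.20 in low-efficiency pigs. The part of these lists in the values of the members was not tested.

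The intervals show which sizes of difference the data allowed. The 95% confidence interval lay within 0.25 log2 units of 0, a 1.19-fold change, for 18 of the 47 members. It lay within 0.5 log2 units, a 1.41-fold change, for 45 members. The exceptions were ATP5E and ATP5C1. These intervals hold for each gene by itself and are not adjusted for the number of genes.

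The 3 genes with the smallest p in complex I all encode accessory subunits. NDUFB9, a subunit of the membrane arm, had 8.64, 9.11 and 9.46 (lowest, median and highest) in high-efficiency pigs, against 8.58, 9.03 and 9.24 in low-efficiency pigs. The groups overlapped over most of their range, and the difference was 0.14 ± 0.09 (SE, adjusted p = 0.98 by limma). NDUFS6, a zinc-binding subunit, differed by 0.13 ± 0.10, and NDUFA10 by 0.12 ± 0.09. When pigs of the same sow and sex were paired, each of the 3 genes was higher at high efficiency in 7 of 10 pairs. Of the other complex I genes, NDUFV3, of the NADH-oxidising end, had the most positive difference, 0.15 ± 0.14, and the X-linked NDUFB11 the most negative, -0.12 ± 0.10. NDUFB8, the complex I gene with the highest signal, differed by 0.08 ± 0.08, and NDUFS4, a subunit needed for a stable complex, by 0.03 ± 0.09.

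The genes of complexes II and III lay still closer together. SDHA, the flavoprotein that oxidises succinate, averaged 8.80 ± 0.21 in high-efficiency pigs and 8.83 ± 0.26 in low-efficiency pigs (SD, n = 10 each). The differences were 0.04 ± 0.07 for SDHB, -0.03 ± 0.11 for SDHA and 0.02 ± 0.09 for SDHD (SE). UQCRB, which lies near the ubiquinone site of complex III, differed by -0.04 ± 0.08, and UQCR10, a small subunit of the same complex, by -0.01 ± 0.08.

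COX7A1 of complex IV had the smallest unadjusted p of all members. It is the isoform of subunit VIIa known from heart and skeletal muscle, and it is encoded on chromosome 6 from 45519225 to 45520721 (Sscrofa11.1). Its values were 5.998, 6.54 and 6.94 in high-efficiency pigs, against 6.10, 6.36 and 6.76 in low-efficiency pigs. The high-efficiency pig was the higher of the pair in 8 of 10 pairs, yet the ranges overlapped almost wholly, and the difference of 0.16 ± 0.09 did not pass (limma, unadjusted p = 0.0965, adjusted p = 0.98). The ubiquitous isoform COX7A2 differed by -0.04 ± 0.08. COX5B and COX7C differed by 0.05 ± 0.08 and -0.08 ± 0.11.

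In complex V the named genes went both ways. ATP5E, the epsilon subunit of the central stalk, had 7.74, 8.02 and 8.96 in high-efficiency pigs, against 7.53, 7.94 and 8.45 in low-efficiency pigs, a difference of 0.26 ± 0.15 (SE, adjusted p = 0.98 by limma). The highest value belonged to a high-efficiency pig, whereas the medians were close. ATP5B had 12.01, 12.22 and 12.43 in high-efficiency pigs, against 11.99, 12.32 and 12.52 in low-efficiency pigs, a difference of -0.09 ± 0.07. ATP5J, coupling factor 6 of the peripheral stalk, differed by -0.12 ± 0.08 and was higher at high efficiency in 2 of 10 pairs. ATP5G1, ATP5G2 and ATP5G3 encode the same mature subunit c of the proton-driven ring, and their differences were 0.06 ± 0.12, -0.01 ± 0.08 and 0.16 ± 0.14. CYCS differed by 0.09 ± 0.13.

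A score was computed for each complex and pig, as the median over its genes of the log2 value less that gene's mean over all pigs. The score of all members was higher at high efficiency in 6 of 10 pairs. The count was 7 of 10 for complex I, 6 of 10 for each of complexes III, IV and V, and 3 of 10 for complex II. For the complex II score the 3 pairs were all male, and the high-efficiency female was the lower of the pair in 5 of 5 litters. None of its 3 genes showed this by itself. The high-efficiency female was the higher in 3 of 5 litters for SDHA, 2 for SDHB and 2 for SDHD. The split of the score is a description, since a score over the members was not tested.

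**Figure D2:**
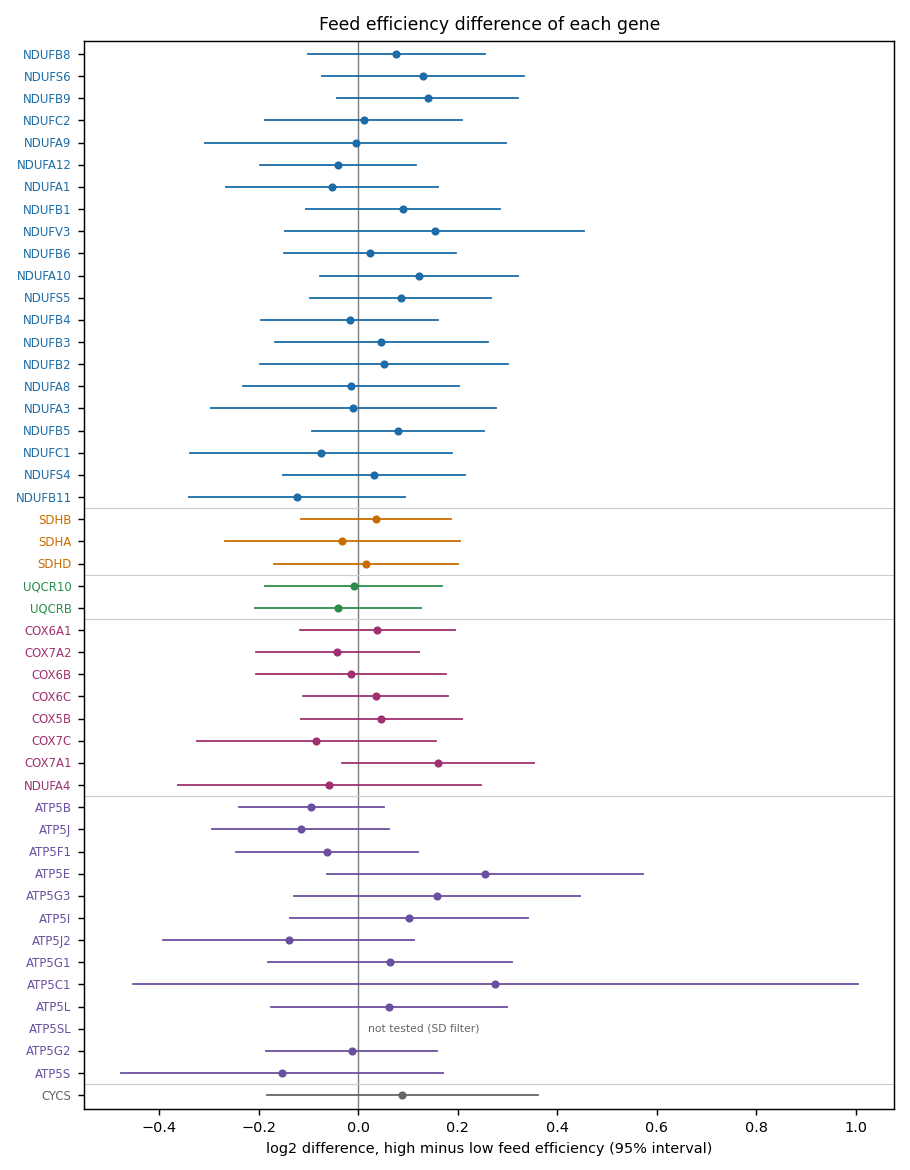
Difference in log2 level, high minus low feed efficiency (x axis), of each gene with its 95% confidence interval from limma with sow in the model; 10 pigs per group, genes in the order and colours of the plot of levels. Every interval includes 0, and that of ATP5C1 is the widest.

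The litters also held both sexes, which allowed males and females to be compared. No member passed the adjusted threshold, and 2 of 48 (4.17%) had an unadjusted p under 0.05, against 0% and 4.29% of 23837 probesets. Both were lower in males. Of all probesets, 1.69% had such a p with a lower and 2.61% with a higher level in males. The difference, male minus female, was above 0 in 11 of 48 members, against 52.9% of all probesets, and its median over the members was -0.04, against 0.01 over all probesets. In complex I it was above 0 in 2 of 21 genes, NDUFB3 and NDUFA1. Since the members moved together from pig to pig, these counts are not independent, and the shared direction was not tested. SDHA had 8.29, 8.68 and 9.09 (lowest, median and highest) in males, against 8.52, 8.96 and 9.23 in females. The male was the lower of the pair in 9 of 10 pairs of the same sow and feed efficiency, the groups overlapped, and the difference was -0.23 ± 0.10 (SE, limma, unadjusted p = 0.0387, adjusted p = 0.9999). ATP5SL had 2.02, 3.63 and 5.66 in males, against 2.83, 5.29 and 6.06 in females, with a difference of -1.16 ± 0.36 (SE, unadjusted p = 0.00485, adjusted p = 0.9999). The sexes overlapped between 2.83 and 5.66, and the male had the lower value in 8 of 10 pairs. COX7C, a small subunit of complex IV, differed by -0.20 ± 0.11 and NDUFB11, an X-linked subunit of complex I, by -0.18 ± 0.10. NDUFA1, which is also X-linked, differed by 0.03 ± 0.10.

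Whether the feed efficiency difference was the same in both sexes was tested by an interaction term. No member passed the adjusted threshold, and 2 of 47 (4.26%) had an unadjusted p under 0.05, against 0% and 4.11% of 23140 probesets. Both were positive. Of all probesets, 2.04% had such a p with a positive and 2.07% with a negative interaction. The interaction, the male minus the female difference, was above 0 in 31 of 47 members, against 49.9% of all probesets. It was above 0 in 17 of 21 genes of complex I, 3 of 3 of complex II, 1 of 2 of complex III and 8 of 12 of complex V. In complex IV it was above 0 in 2 of 8 genes, COX7C and COX6C. Its median over the members was 0.08, but -0.04 without the litter of sow 1411. Here too the members do not count as independent, and the shared direction was not tested. In COX7C the high-efficiency pig exceeded the low-efficiency pig by 0.56, 0.17 and 0.20 in the males of sows 1406, 1410 and 1417, and by -0.04 and -0.16 in those of sows 1411 and 1435. In females the same difference was -0.39, -0.71, -0.01, -0.43 and -0.02 in the order of sow numbers, below 0 in all 5. The interaction was 0.46 ± 0.19 for COX7C (SE, limma, unadjusted p = 0.0264, adjusted p = 0.999) and 0.58 ± 0.26 for NDUFA9, an accessory subunit of complex I (unadjusted p = 0.0389, adjusted p = 0.999). For NDUFA9 the males of sow 1411, with a difference of 1.12, and the females of sow 1435, with -0.94, lay farthest out.

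Differences between litters were compared by an F test over the 5 sows, in a fit that also held efficiency group and sex. No member passed the adjusted threshold, against 0.126% of 23837 probesets, and the smallest adjusted p was 0.164. An unadjusted p under 0.05 was found for 8 of 48 members (16.7%), against 16.1% of all probesets, so the members' share was near the background. A median of 30.6% of the variance of a member lay between litters, against 27.4% over all probesets.

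The 8 genes were ATP5SL, ATP5G2, NDUFB9, NDUFB11, NDUFA10, COX7A1, ATP5G3 and UQCRB. They were picked by their litter p, and the 2 litters compared are those with the highest and lowest mean of each gene. Gaps between such litters are partly built in by this choice and are only a description. NDUFB9, on chromosome 4 from 15105305 to 15113281, is given with the high-efficiency male and female before the low-efficiency male and female. It had 9.46, 9.46, 9.24 and 9.16 in litter 1406, against 8.64, 8.81, 8.58 and 9.03 in litter 1435. The 2 litters did not overlap (F test by limma, unadjusted p = 0.0121, adjusted p = 0.214), and the other 3 lay between them, with means of 9.02, 9.12 and 8.95.

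NDUFA10 had 8.19, 8.23, 8.12 and 8.20 in litter 1406, against 7.68, 7.67, 7.31 and 7.98 in litter 1435, with the pigs in the same order. Again the 2 litters did not overlap, and litter 1406 was the tightest, with an SD of 0.05 (unadjusted p = 0.0131, adjusted p = 0.219 by limma). NDUFB11 averaged 6.12 ± 0.12 in litter 1406 and 5.59 ± 0.20 in litter 1417 (SD, n = 4 each). COX7A1 averaged 6.70 ± 0.10 in litter 1410 and 6.20 ± 0.14 in litter 1435.

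All 3 genes of subunit c had their lowest mean in litter 1417. ATP5G2, which is dim on the array, averaged 3.62 ± 0.14 in litter 1406 and 3.08 ± 0.15 in litter 1417, whereas the other 3 litters lay between 3.22 and 3.31. ATP5G3 averaged 8.38 ± 0.22 in litter 1406 and 7.61 ± 0.42 in litter 1417. ATP5G1 was highest in litter 1411, with a mean of 6.93, and lowest in litter 1417, with 6.54. UQCRB was highest in litter 1417 and lowest in litter 1411. It had 7.21, 7.22, 7.18 and 7.35 in litter 1417, against 6.96, 6.60, 7.05 and 6.96 in litter 1411, and these 2 litters did not overlap.

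ATP5SL had the smallest litter p of the members (unadjusted p = 0.00447, adjusted p = 0.164 by limma). It had 2.02, 2.83, 3.10 and 4.61 in litter 1417, against 5.43, 6.004, 5.46 and 6.06 in litter 1410. Within litter 1435 the high-efficiency male had 2.97 and its 3 littermates 5.21 to 5.61, so that litter held both low and high values.

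**Figure D3:**
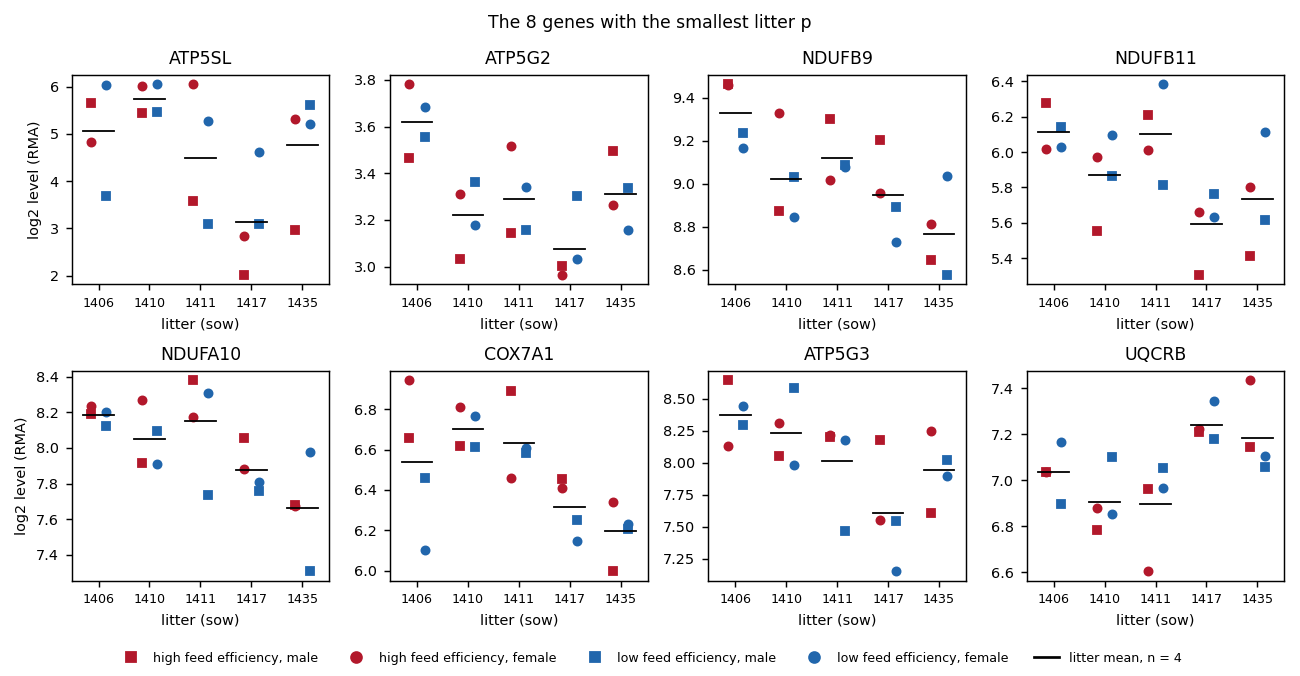
Log2 level (y axis, RMA) by litter (x axis, sow) of the 8 genes with the smallest litter p; colours give feed efficiency, squares are males, circles are females and black lines are means of 4 pigs. Litter 1435 has the lowest mean in NDUFB9, NDUFA10 and COX7A1, litter 1417 in ATP5SL, ATP5G2, NDUFB11 and ATP5G3, and UQCRB is highest in litter 1417.

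Although single genes did not pass, the litters at the ends of the order recurred over the members, which is a description with no test. Litter 1435 had the lowest mean for 23 of 48 members (47.9%), against 29.4% of 23837 probesets, and litter 1406 had the highest mean for 22 (45.8%), against 29.8%. In complex I, 13 of 21 genes were lowest in litter 1435 and 13 of 21 were highest in litter 1406. The score of complex IV averaged 0.10 in litter 1406 and -0.15 in litter 1435, with 53.1% of its variance between litters. For complex I the averages were 0.12 and -0.13, with 32.7% between litters, and complex II had its highest score, 0.09, in litter 1417.

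Scores of cell type markers are given beside these litters. The lymphocyte marker score, over 12 of 16 genes, was -0.67 to -0.08 in the 4 pigs of litter 1406 and 0.07 to 0.45 in those of litter 1435. The goblet cell score, over 6 of 10 genes, was -0.12 to 0.27 in litter 1406 and -0.43 to 0.18 in litter 1435. The smooth muscle score, over 8 of 10 genes, was 0.02 to 0.21 in litter 1406 and -0.17 to -0.03 in litter 1435. The lymphocyte and smooth muscle scores of the 2 litters did not overlap. The scores of goblet cells, colonocytes, myeloid cells, fibroblasts and striated muscle did. Scores of 2 mitochondrial lists did not overlap either. The mitochondrial ribosome had 0.05 to 0.26 in litter 1406 and -0.29 to -0.01 in litter 1435. Regulators of mitochondrial biogenesis went the other way, with -0.18 to -0.04 and -0.03 to 0.09. The part of all these lists in the litter differences of the members was not tested. In a bulk sample fewer cells of a type and less RNA per cell cannot be told apart.

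**Figure D4:**
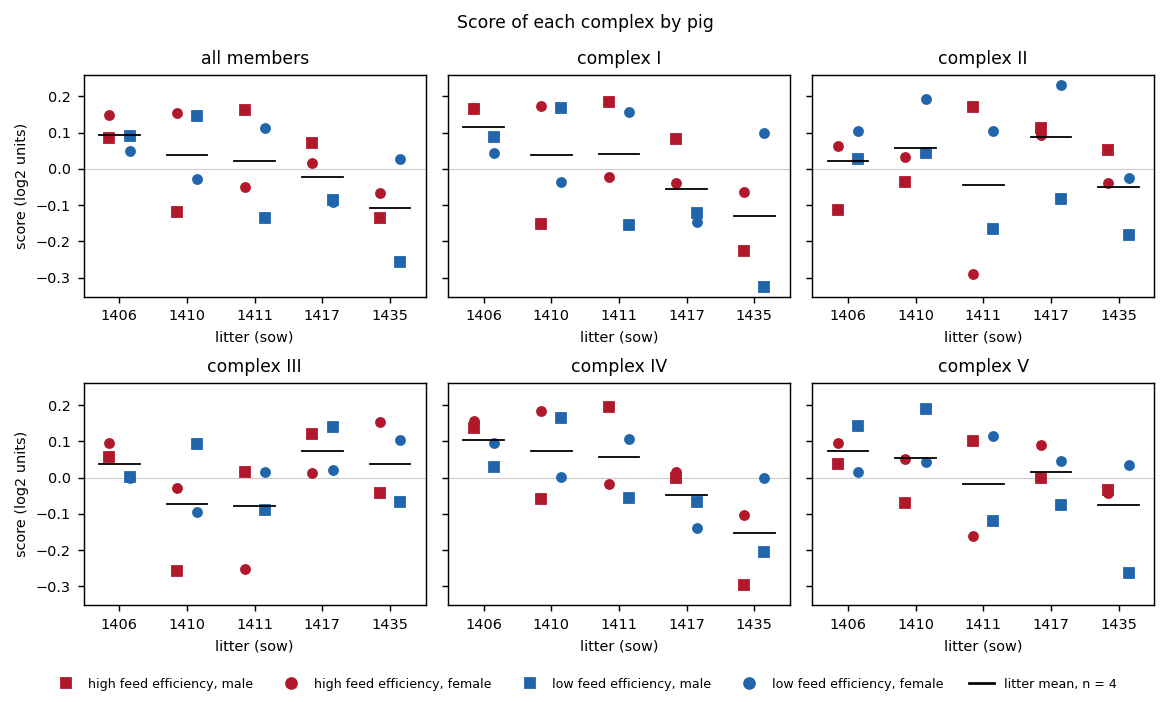
Score of all members and of each complex (y axis, log2 units) by litter (x axis, sow); 1 symbol per pig, coloured by feed efficiency, with squares for males, circles for females and a line for the litter mean of 4 pigs. Complex I and complex IV are highest on average in litter 1406 and lowest in litter 1435, and complexes II and III have other orders.

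The number in each pig's label, from 401 to 440, was also followed. What the number stands for beyond identity is not given in the labels, and 82.9% of its variance lay between litters. Within litters no member passed the adjusted threshold, and 3 of 48 (6.25%) had an unadjusted p under 0.05, against 0.0755% and 17.9% of 23837 probesets. Of the 48 members, 1 had such a p with a positive slope, against 8.31% of all probesets, and 2 with a negative slope, against 9.59%. The slope was above 0 in 22 members, against 42% of all probesets. The slopes per 10 numbers were -0.29 ± 0.12 for NDUFA4, -0.23 ± 0.10 for ATP5G1 and 0.19 ± 0.08 for NDUFB3, an accessory subunit of complex I (SE, limma, adjusted p from 0.237 to 0.249). The next were 0.59 ± 0.30 for ATP5C1, 0.13 ± 0.08 for NDUFB4 and 0.12 ± 0.08 for ATP5F1, subunit b of the peripheral stalk, none of which passed. Without a litter term 10 of 48 members passed the adjusted threshold, against 20.1% of all probesets. Of the 48, 9 passed with a lower level at higher numbers, against 10% of all probesets. Among the 4786 probesets that passed, 2390 had a lower level at higher numbers. The 10 were NDUFA10, NDUFB9, NDUFB11, NDUFC2, UQCRB, COX5B, COX6B, COX7A1, ATP5G1 and ATP5G3, and UQCRB was the exception in direction. Pig number and litter cannot be told apart in that fit.

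The members moved together from pig to pig. Values were centred on their litter, and the Pearson correlation was taken over 20 pigs for each pair of genes. These correlations share arrays and normalisation, and they are given as a description. The median r was 0.25 over 1128 pairs of members, and 73.0% of the pairs were above 0 and 22.3% over 0.5. Over 56578203 pairs of named genes the median was 0.01, with 50.6% above 0 and 4.82% over 0.5. Over pairs of the 6554 named genes at or above the median of probeset means it was 0.003, with 50.3% above 0 and 6.77% over 0.5. Leaving out any 1 pig gave medians for the members between 0.22 and 0.27.

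Complex I had the highest median of the complexes, and differences between complexes were not tested. The median r was 0.41 over its 210 pairs, of which 88.6% were above 0. It was 0.24 over the 28 pairs of complex IV (but -0.02 with values as deposited, not centred on litter). Over the 78 pairs of complex V it was 0.03, and these pairs include ATP5S and ATP5SL, which are not subunits. Without the dim ATP5S, ATP5SL and ATP5G2 the median within complex V was 0.24. The 3 pairs within complex II had a median of 0.32, and the single pair of complex III, UQCR10 with UQCRB, had -0.06. Pairs within a complex had a median of 0.32 and pairs between complexes 0.22. Genes of complex I went with those of complex IV at a median of 0.36, as closely as with those of complex II, at 0.38.

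Of the 10 closest pairs, 4 joined genes of different complexes, against 808 of all 1128 pairs of members. COX5B and COX6A1, both of complex IV, had an r of 0.89. NDUFB8 of complex I and ATP5I, a subunit of the membrane part of complex V, had 0.88, as had NDUFA8 and UQCR10. NDUFC2 and COX6B had 0.87, and NDUFA10 and NDUFS6 likewise 0.87. COX6B is the subunit of complex IV on its intermembrane side, and NDUFA8 lies on the same side of complex I.

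Each gene was also set against the mean of all other members. Of the 48, 27 had an r over 0.5, and 17 of these were complex I genes. The highest values were those of NDUFC2 and NDUFA8, both 0.84, and NDUFA10 and COX6A1, both 0.83. SDHA reached 0.77 and ATP5I 0.79. Another 15 members lay between 0 and 0.5, among them ATP5B with 0.28, CYCS with 0.21 and SDHD with 0.02.

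The remaining 6 members had an r of 0 or less. They were NDUFB3 (-0.04), COX7C (-0.18), NDUFA4 (-0.39), ATP5S (-0.48), ATP5SL (-0.08) and ATP5G2 (-0.06). Of these, NDUFA4, ATP5S, ATP5SL and ATP5G2 were under the median level of all probesets, whereas NDUFB3 and COX7C were at 7.61 and 7.76. Without members under that median, the median r was 0.33 over all pairs and 0.24 within complex V.

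Each gene was also set against the other members of its own complex. UQCR10, with 0.69 against all other members, had -0.06 there, ATP5G3 had -0.04 and ATP5E 0.05, against 0.39 and 0.36 with all members. In complex I the mean of the other members went best with NDUFA10 (r of 0.87) and least with NDUFB3 (-0.09). In complex II SDHA had 0.58 and SDHD 0.29, and in complex IV COX6A1 had 0.72 and NDUFA4 -0.36. In complex V ATP5J had 0.60, and ATP5SL and ATP5S, which are not subunits, both had -0.23. The lowest subunit of complex V was ATP5G2, with -0.11. The isoforms COX7A1 and COX7A2 had 0.48 and 0.68 with complex IV.

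**Figure D5:**
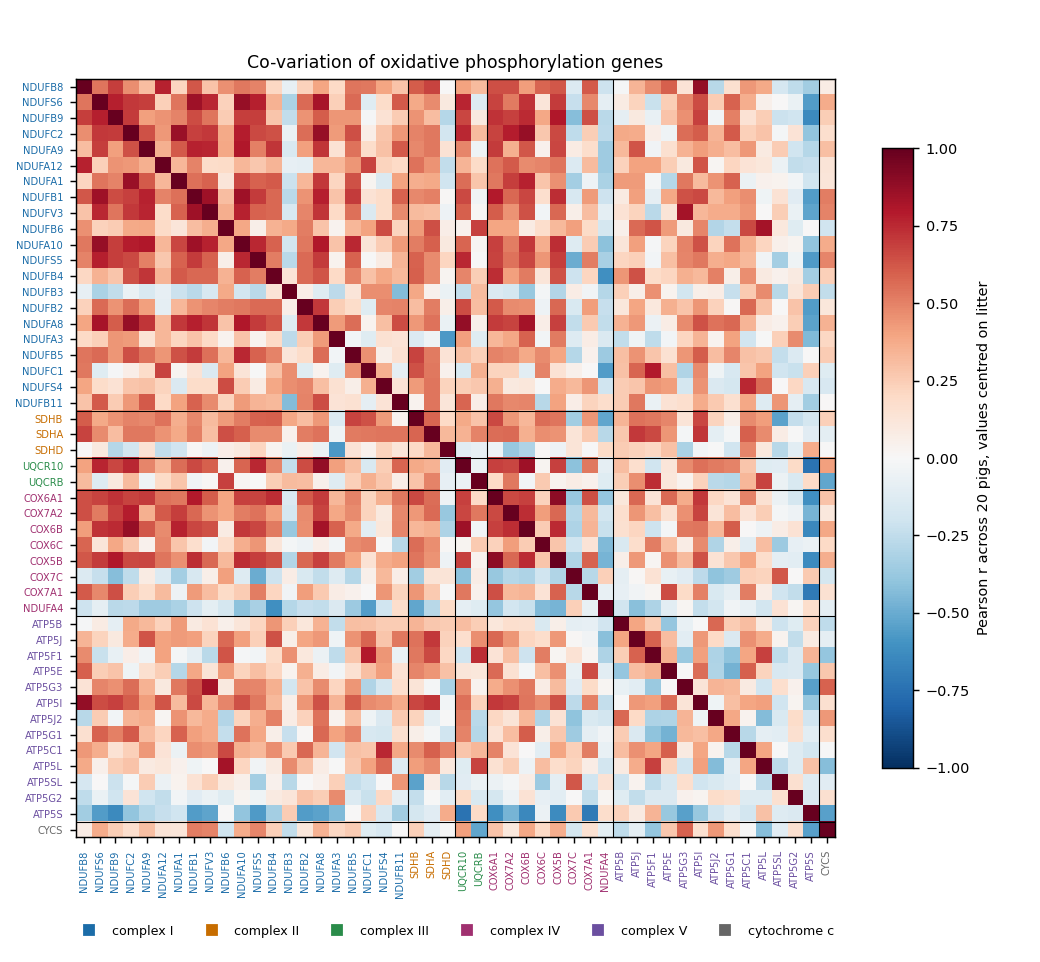
Pearson r over 20 pigs of the log2 levels of each pair of the 48 genes, centred on litter (colour scale from -1 to 1); black lines separate the complexes, and genes are in the order of the plot of levels. The block of complex I and its rows against COX6A1, COX7A2, COX6B, COX5B, UQCR10 and ATP5I are mostly red, and NDUFB3, COX7C, NDUFA4, ATP5S and ATP5G2 show pale or blue rows.

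At the level of scores, centred on litter, complex I went with complex IV (Pearson r of 0.91, Spearman rho of 0.88, 20 pigs), complex III (r of 0.74) and complex V (r of 0.73). With complex II its r was 0.36. Complex II went with complex V (r of 0.71). The 2 pigs farthest from the median of the second score of each pair (complexes IV, III, V, II and V in turn) were then left out. Without them these r were 0.91, 0.74, 0.69, 0.26 and 0.60. No p is given, since a score over the members was not tested.

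Other mitochondrial genes were compared with the score of all members in the same way. The mitochondrial ribosome, which translates the subunits encoded in mitochondrial DNA, had an r of 0.75 over 50 of 77 listed genes, and the carriers of the inner membrane 0.69 over 11 of 17. The citric acid cycle had 0.44 over 12 of 19 genes. The regulators of mitochondrial biogenesis had 0.12 over 11 of 18. Of the assembly factors, those of complexes II and III had 0.61 over 2 of 10 genes, those of complex IV 0.49 over 7 of 25, those of complex V 0.40 over 4 of 5, and those of complex I 0.24 over 7 of 17, which was -0.01 without the 2 farthest pigs. Cytosolic ribosomal proteins, added after other values had been seen, had 0.09 over 54 genes.

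Markers of cell types also moved with the score. The r was 0.57 for goblet cells (0.37 without the 2 farthest pigs), 0.25 for colonocytes, -0.31 for lymphocytes, -0.44 for myeloid cells (-0.27 without the 2 farthest pigs) and -0.46 for fibroblasts. For smooth and striated muscle it was 0.04 and 0.13. The mean level of the goblet cell list was 8.16 to 8.74 in high-efficiency pigs and 7.80 to 8.77 in low-efficiency pigs, and that of the fibroblast list 7.80 to 8.58 and 7.95 to 8.49. The part of the cell mixture in the co-variation was not tested. The mean of all probesets of an array had an r of 0.06 with the score and the pig number -0.03, both centred on litter. Principal component 1 of all probesets, with 17.2% of the variance, had -0.36 centred on litter and -0.60 as deposited. Principal component 3, with 6.07% of the variance, had -0.75 centred on litter. The sign of a component is arbitrary, and each was turned to correlate positively with pig number.

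The genes around the complexes were tested for feed efficiency from lists. None of the listed assembly factors passed the adjusted threshold. At an unadjusted p under 0.05 there were 0 of 6 tested for complex I, 0 of 2 for complexes II and III, 1 of 7 for complex IV and 0 of 4 for complex V, against 4.48% of all probesets. The gene of complex IV was HIGD1A, a small protein of the inner membrane that binds complex IV, with a difference of -0.38 ± 0.11 (SE, limma, unadjusted p = 0.0032, adjusted p = 0.98). NDUFAF3, an assembly factor of complex I, differed by 0.18 ± 0.09, and BCS1L, which inserts the iron-sulfur protein into complex III, by 0.23 ± 0.13.

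Of the mitochondrial ribosome 2 of 49 genes had an unadjusted p under 0.05, MRPS2 and MRPL38, at 0.18 ± 0.08 and 0.21 ± 0.09 and both higher at high efficiency. The carriers had 1 of 11, UCP2, an uncoupling protein, at 0.28 ± 0.13. The citric acid cycle had 0 of 12 and the biogenesis list 0 of 11, among them PPARGC1A, a coactivator of mitochondrial genes. Adjusted p was 0.98 for MRPS2, MRPL38 and UCP2 (limma, Benjamini-Hochberg). For litter 12 of 50 genes of the mitochondrial ribosome had an unadjusted p under 0.05, against 16.1% of all probesets, and none passed the adjusted threshold.

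For 12 member genes the array held 17 further probesets. Their correlation with the probeset used had a median of 0.40 over 20 pigs, with 7 over 0.5 and 3 below 0. No unadjusted p was under 0.05 for feed efficiency among the 16 tested, or for litter among all 17, and the further COX7A1 probeset was not tested for feed efficiency. For sex 2 of the 17 had an unadjusted p under 0.05, against 4.29% of all probesets, a probeset of NDUFB8 with a mean of 1.81 (p = 0.00543) and 1 of SDHB with a mean of 5.84 (p = 0.0145), both at an adjusted p of 0.9999 (limma). For pig number 2 probesets of SDHB had an unadjusted p of 0.0218 and 0.0201, against 17.9% of all probesets under 0.05, with adjusted p of 0.203 and 0.198 (limma). SDHB was measured by 6 probesets, and 4 of the 5 others had an r of 0.55 to 0.77 with the one used, at means of 9.26 to 9.65. The second probeset of ATP5E, at 4.52, had an r of -0.17 with the one used, that of ATP5C1, at 4.68, had 0.06, that of COX6C, at 8.85, had 0.16, and that of NDUFC1, at 5.01, had 0.68.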

How the data were processed

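Caecal mucosa of 20 pigs was hybridised to the Affymetrix porcine snowball array, with 1 array per pig. The log2 values were deposited by the authors and result from robust multichip averaging, which equalises the distribution of intensities between arrays, so that changes shared by all transcripts of an array are removed and those of dim probesets can be compressed. According to the study's methods the probe layout was built on Sscrofa11.1, and the submitters' processing notes name GCOS 1.1.1. The labels and the methods name different extraction and labelling kits. All 20 columns were matched to pigs and 0 were left out. Of 47845 probesets, 25092 had values.

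Members were taken by platform symbol, and positions came from the RefSeq gene table of Sscrofa11.1. Members and lists were chosen with earlier results of these data known. As in the study, a mean below the 5% quantile (1.62 on the log2 scale) led to removal, which left 23837 probesets, and for feed efficiency and its interaction with sex so did an SD over the 95% quantile in both efficiency groups, which left 23140. Models were fitted with limma (version 3.58.1) in R (version 4.3.3), tests were two-sided, and adjustment followed Benjamini and Hochberg over all probesets tested. Sow was a fixed factor. Slaughter batch, a term of the study's model, is no label field and was left out. Replicate numbers are only names, and pairs were formed by sow and sex. Correlations used numpy (version 2.4.6) and figures matplotlib (version 3.10.9). The fits were tested on simulated data with planted effects much larger than the feed efficiency differences of the members. That test cannot show how well differences as small as those of the members are found. The pigs are separate animals, and their number limits the precision.

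Named genes were, per complex, the 3 members with the smallest feed efficiency p, the 8 with the smallest litter p, the 4 for sex and the 6 for pig number, those counted in the interaction, the extremes of co-variation and isoforms. Other genes were named after their values were seen. Alternatives covered filters, scaling, probeset choice, the sow term, sex or pig number as covariates, the prior of the fit, and leaving out each pig or litter.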

Additional observations from a re-analysis of the deposited data

Results flagged for a closer look

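Among the efficiency groups of 10 pigs and the litters of 4 pigs examined for named members and for the scores of complexes, 134 in all, 3 held a pig far from the others, and chance alone marks about 5% of groups. ATP5B in the low-efficiency group was lowest in the male of sow 1435, at 11.99, with the next pig at 12.25. ATP5SL in the litter of sow 1435 was lowest in the high-efficiency male, at 2.97, with the next littermate at 5.21. ATP5G3 in the litter of sow 1411 was lowest in the low-efficiency male, at 7.47, with the next littermate at 8.18. These 3 values belong to different pigs.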

How the results depend on the processing

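The count of members with an adjusted p under 0.05 stayed at 0 for feed efficiency, litter, sex and the interaction under every alternative run, which for feed efficiency included the pair of 1 sow and sex as a block. For pig number it was 10, and 21 at an unadjusted p, without a sow term, and 9 and 20 with sow as a random block, where pig number and litter cannot be told apart. In these 2 fits the slope of NDUFB4 turned to -0.00303 and -0.00265 per 10 numbers. Unadjusted counts also moved for litter, to 3 with pig number in the model, for sex, to 1 without probesets under the median and to 1 after a further quantile normalisation, and for the interaction, to 1 without a sow term. The feed efficiency difference of SDHB was -0.0129 with the mean over its probesets. The median r within complex IV was -0.0193 with values as deposited. The median r over members at or above the median of probeset means was 0.33, and 0.31 between complexes. With the mean over all probesets of a gene the median level was 7.61 for complex I and 6.73 for complex V. Leaving out 1 pig or 1 litter gave 0 to 2 unadjusted members for feed efficiency, 4 to 12 for litter, 1 to 3 for sex, 0 to 2 for the interaction and 0 to 6 for pig number. Feed efficiency differences near 0 changed sign in some of these fits. They ran from -0.0864 to 0.0172 for SDHA, from -0.0285 to 0.0658 for SDHD, from -0.0478 to 0.0256 for UQCR10, from -0.102 to 0.00625 for UQCRB and from -0.0687 to 0.191 for CYCS. No paired analysis by replicate number was possible because the labels give pigs no replicate numbers. Precision is limited by 10 pigs per group, and the dim members NDUFA4, ATP5S, ATP5SL, ATP5G2 and CYCS are the least certain.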
